A study of Mus musculus with 96 samples.

Results

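OCT4 binding was compared between mouse embryonic stem (ES) cells that had received doxycycline (Dox) for 8 hours to switch on GATA6 and the same cells without Dox, over all 42403 of the 42403 GATA6 binding regions listed for the study. The regions were the peaks called for GATA6 along its induction, so none was chosen by its OCT4 signal. The cells were of the KH2 line, derived from a cross of C57BL/6 and 129/Sv, and every cell, treated or not, carried a Dox-inducible cassette that encodes GATA6 with an HA tag; the study kept clones G6.1 and G6.3 of this line, and which clone gave which library is not given in the sources used here. They were grown on inactivated mouse embryonic fibroblasts in serum with LIF, Dox was given at 1 µg/mL, and the fibroblasts were removed by adsorption before the cells were fixed. Of the 96 samples of the series, 4 carry this comparison: 2 OCT4 chromatin immunoprecipitation (ChIP-seq) libraries without Dox and 2 at 8 h. The study's methods give 2 separate preparations of chromatin for most conditions, and OCT4 in these cells is not among the exceptions they name; whether they came from separate cultures is not stated, and the p-values measure the spread between these libraries. In bulk chromatin a smaller share of cells with OCT4 on a region cannot be told apart from less OCT4 per cell.

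OCT4, the product of Pou5f1, is a POU-domain transcription factor that keeps ES cells pluripotent. It often binds together with SOX2 at a composite element in which a SOX motif lies beside an octamer-like motif, here called OCT:SOX. GATA6 is a zinc-finger factor that recognises GATA motifs, can bind DNA wrapped on nucleosomes, and drives ES cells towards primitive endoderm, the extraembryonic lineage that lines the blastocyst cavity and later forms the yolk sac endoderm. The comparison asks where OCT4 is found in the first hours of GATA6, before the pluripotency network has been taken down.

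The deposited values are RPM, the reads on each region scaled by the authors to library size and averaged over libraries. The lowest values showed that the OCT4 column labelled as before Dox is a mean over 6 libraries, the 2 before Dox together with the 2 at 8 h and the 2 at 16 h. The later columns were therefore subtracted, which left a positive value in all 42403 regions, and the resulting mean of the 2 libraries before Dox is used throughout. Since each library contributes whole reads, the means could also be divided into their libraries, uniquely in 99.9% of the regions (42353) before Dox and in 100% at 8 h. The libraries carry no replicate number and are named here by depth. From the worth of 1 read, the deeper library before Dox held 22.3 M reads and the shallower 20.3 M, and those at 8 h held 15.3 M and 13.4 M.

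The sequences of 6 regions that gained OCT4 carry both kinds of motif. Each is given as the stretch that spans the best GATA6 match and the best OCT:SOX match (JASPAR matrices, matched by the authors with FIMO), both in capitals; the bases are the RefSeq sequence of GRCm38.p6, the mm10 build of the files, plus strand. The first match from the left is OCT:SOX in the stretches named Zfand5, Zfp239 and Cpn1 and GATA6 in the others. Each region is named by the protein-coding gene with the nearest start, as a name only. The first 3 had among the largest changes of all regions, and the last 3 had the most GATA6 of their motif class among closed regions called higher. They span chr19:21337493-21337563, chr6:117854604-117854715, chr4:32706602-32706655, chr13:101805689-101805786, chr19:43982078-43982205 and chr5:75146633-75146721.
Zfand5: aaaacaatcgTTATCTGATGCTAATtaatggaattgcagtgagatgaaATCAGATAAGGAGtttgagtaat
Zfp239: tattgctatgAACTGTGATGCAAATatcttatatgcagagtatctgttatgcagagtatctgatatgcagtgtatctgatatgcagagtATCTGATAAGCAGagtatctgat
Mdn1: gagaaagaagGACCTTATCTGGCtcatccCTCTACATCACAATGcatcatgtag
Pik3r1: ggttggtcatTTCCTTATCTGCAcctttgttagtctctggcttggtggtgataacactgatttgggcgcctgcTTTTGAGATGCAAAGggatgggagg
Cpn1: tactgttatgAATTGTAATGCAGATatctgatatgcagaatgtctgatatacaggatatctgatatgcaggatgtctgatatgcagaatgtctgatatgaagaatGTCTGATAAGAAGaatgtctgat
Pdgfra: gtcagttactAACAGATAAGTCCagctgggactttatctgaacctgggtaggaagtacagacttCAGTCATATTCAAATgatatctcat

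Over all regions the difference in OCT4 was small and its sign depended on the scaling. Its median level was 0.625 RPM before Dox and 0.736 RPM at 8 h, against 0.490 and 1.49 RPM for GATA6, whose value before Dox came from a single library. The median OCT4 change, 8 h minus before Dox on the log2(RPM + 0.144) scale, was 0.14, with quartiles of -0.21 and 0.52, and 60.6% of regions had a change above 0. The library medians were 0.716 RPM (deeper) and 0.493 RPM (shallower) before Dox and 0.720 and 0.744 RPM at 8 h. The deeper library before Dox thus lay beside both 8 h libraries and the shallower one below all 3, and over the 4 pairs of an 8 h and a before-Dox library the median change ran from -0.00 to 0.31. Without the deeper library before Dox it was 0.31, and after quantile normalization of the means it was -0.035. Levels correlated across regions with Pearson's r of 0.90 between the libraries before Dox, 0.93 between those at 8 h and 0.84 to 0.89 across the groups (a description over 42353 regions, which share the libraries' depth and are not replicates).

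A region was called where its mean RPM changed at least 2-fold, pseudocount included, and the higher value was at least 1 RPM. Of all regions, 2816 were called higher (6.64%) and 267 lower (0.63%). Regions of low signal could not reach 1 RPM, and the pseudocount draws their changes towards 0, so shares called are compared below beside median changes. Both 8 h libraries lay above both libraries before Dox in 2808 of 2814 regions called higher that could be divided, against 31.3% of all regions, and below both in 257 of 267 called lower, against 15.3%. The calls used the means of these same libraries, so this separation follows largely from the call and is no separate support for it. The regions just inside the 2-fold limit read 0.587 and 1.32 RPM for a higher call and 2.41 and 1.13 RPM for a lower call, and those just outside read 1.00 and 2.15 RPM and 1.90 and 0.881 RPM. A limma fit on the divided libraries called 1651 regions higher (3.9%) and 74 lower (0.175%) at an adjusted p under 0.05; 1460 and 53 of these were also called by fold. With each library set to the same median it called 1515 higher and 553 lower. The number called higher depended on the libraries before Dox. It rose to 4966 without the deeper of them and fell to 1885 without the shallower. After quantile normalization of the libraries limma called 0 regions in either direction (7236 at an unadjusted p under 0.05).

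The OCT4 change was largest where GATA6 was strongest. With the regions ordered by GATA6 RPM at 8 h and cut into 10 groups of about equal size, the median OCT4 change lay between -0.03 and 0.06 in the 4 lowest groups, was 0.12, 0.17, 0.20, 0.25 and 0.25 in the next 5 and reached 0.47 in the highest. In the highest group the library medians were 3.71 and 2.42 RPM before Dox and 4.84 and 4.54 RPM at 8 h, and 981 of 4241 regions were called higher (23.1%). The lowest 2 groups held none, at OCT4 medians of 0.205 and 0.280 RPM at 8 h, well under the 1 RPM that a call needs. The change was 0.41 larger in the highest than in the lowest group (SD 0.28 over the 4 library pairs, 0.13 to 0.73, n = 2 libraries per group), so its direction held in every pair while its size did not. The libraries before Dox already differed along the same order: the shallower was below the deeper by 0.11 (log2 scale) in the lowest group and by 0.47 in the highest, a difference as large as the change itself. Without the deeper of them the contrast between highest and lowest was 0.67, and without the shallower 0.21. Across all regions the OCT4 change and GATA6 at 8 h had a Spearman rho of 0.25.

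**Figure D1:**
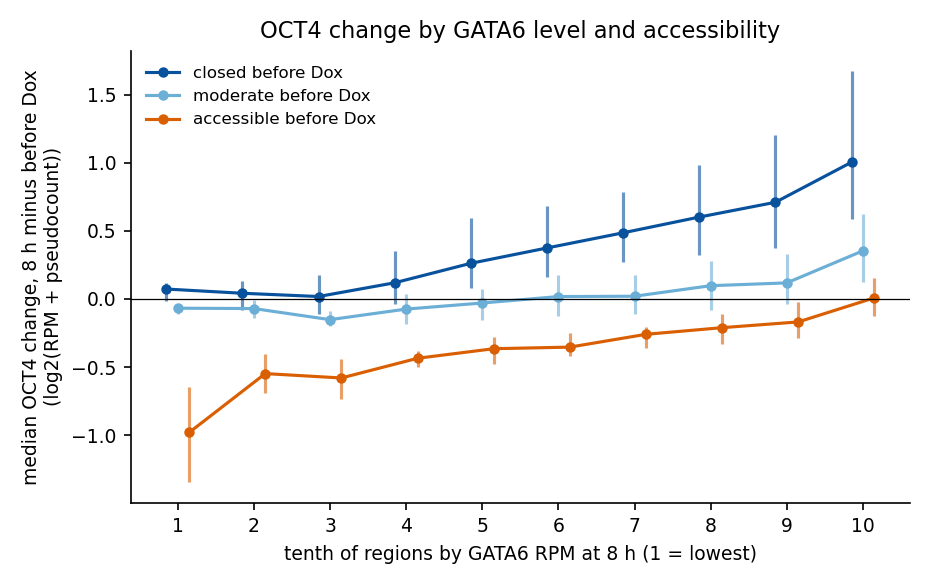
Median OCT4 change (8 h minus before Dox, log2(RPM + pseudocount)) in the 10 groups of regions ordered by GATA6 RPM at 8 h, for regions classed as closed, moderate or accessible before Dox; vertical lines give the range over the 4 pairs of libraries. Closed regions rise from 0.07 to 1.00 across the groups, moderate ones end at 0.35 and accessible ones run from -0.98 to 0.01. Enough closed and accessible regions for a comparison within groups were present in only 9 of the 10 groups, so an accessible point may rest on few regions.

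Chromatin before Dox separated the regions further. The authors classed them by ATAC-seq signal in untreated cells as closed (26003), moderate (13248) or accessible (3152). In closed regions OCT4 stood at library medians of 0.447 and 0.296 RPM before Dox and 0.458 and 0.446 RPM at 8 h, with a median change of 0.23. Here the deeper library before Dox lay between the 8 h libraries. In accessible regions the medians were 2.86 and 2.71 RPM before Dox and 2.55 and 2.23 RPM at 8 h, so that both 8 h libraries were lower, and the median change was -0.24. Moderate regions changed by 0.07. Closed regions made up 79.6% of those called higher and 61.3% of all regions, while 18 accessible regions were called higher and 138 lower. By limma, 1215 closed regions rose (4.67%) and 6 fell (0.023%), and 28 accessible regions rose (0.898%) and 43 fell (1.38%). The shares over all regions were 3.9% and 0.175%.

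The change in closed regions exceeded that in accessible regions by 0.47 (SD 0.21 over the 4 pairs, 0.26 to 0.73). Input chromatin moved the same way and was not even between its own libraries. Accessible regions had input medians of 0.755 and 1.18 RPM before Dox, the second from the shallower input library, and 0.668 and 0.660 RPM at 8 h. Relative to input the difference between closed and accessible regions was -0.06, and with only the deeper or only the shallower input library before Dox it was 0.27 or -0.30. With input of the same time subtracted it was 0.15. Its direction thus depended on 1 input library, whose part in the fall at accessible regions was not tested further. The closed regions had an input change of 0.09.

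Within every accessibility class the OCT4 change rose with GATA6, with a Spearman rho of 0.42 in closed, 0.28 in moderate and 0.37 in accessible regions. From the lowest to the highest GATA6 group, the median change in closed regions went from 0.07 to 1.00. In the 1453 closed regions of the highest group the library medians were 2.24 and 0.986 RPM before Dox and 3.53 and 3.42 RPM at 8 h. Both 8 h libraries were therefore above both untreated ones, and 728 of these regions (50.1%) were called higher, 546 (37.6%) by limma. Over the pairs the change ran from 0.59 to 1.67. Input in the same regions changed by 0.25. Moderate regions of the highest group changed by 0.35, and accessible ones, which held 8.39 RPM before Dox and 8.86 RPM at 8 h, by 0.01.

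Sequence divided the closed regions in the same direction. The best match of each region was classed by the authors by its FIMO score, a log-odds measure of likeness to the motif: a GATA6 match was high from 12 upwards and mid from 9, and an OCT:SOX match high from 13 and mid from 10. Over all regions the median OCT4 change was 0.28 with a high GATA6 match and 0.01 with none, a difference of 0.27 (SD 0.21 over the pairs, 0.15 to 0.59). It was 0.27 with a high OCT:SOX match and 0.04 with none, a difference of 0.23 (SD 0.10, 0.11 to 0.35). Both differences kept their sign in all 4 pairs. The OCT:SOX difference shrank to 0.08 relative to input and to -0.00 with the shallower input library alone, and the GATA6 motif difference to 0.05 with that library.

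Within closed regions the contrast by OCT:SOX was larger. With a high OCT:SOX match the median change was 0.63 and 285 of 1134 regions (25.1%) were called higher. The values fell to 0.44 and 18.7% with a mid match, 0.23 and 8.23% with a low one and 0.13 and 2.56% with none. In the 385 closed regions with a high match to both motifs OCT4 stood at library medians of 1.03 and 0.641 RPM before Dox and at 1.64 and 1.64 RPM at 8 h. Both 8 h libraries lay above both others, the median change was 0.76, and 124 regions (32.2%) were called higher. In the 747 closed regions with neither motif the libraries read 0.268 and 0.197 RPM before Dox and 0.262 and 0.223 RPM at 8 h. There the groups overlapped, the change was 0.07 and 4 regions (0.535%) were called. A high GATA6 match with no OCT:SOX match went with a change of 0.17, and a high OCT:SOX match with no GATA6 match with one of 0.36 (58 regions). Motifs of the other factors separated the regions less. Over all regions the change was 0.14 with a high and 0.11 with no SOX17 match, and 0.16 with a high and 0.12 with no ESRRB match.

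**Figure D2:**
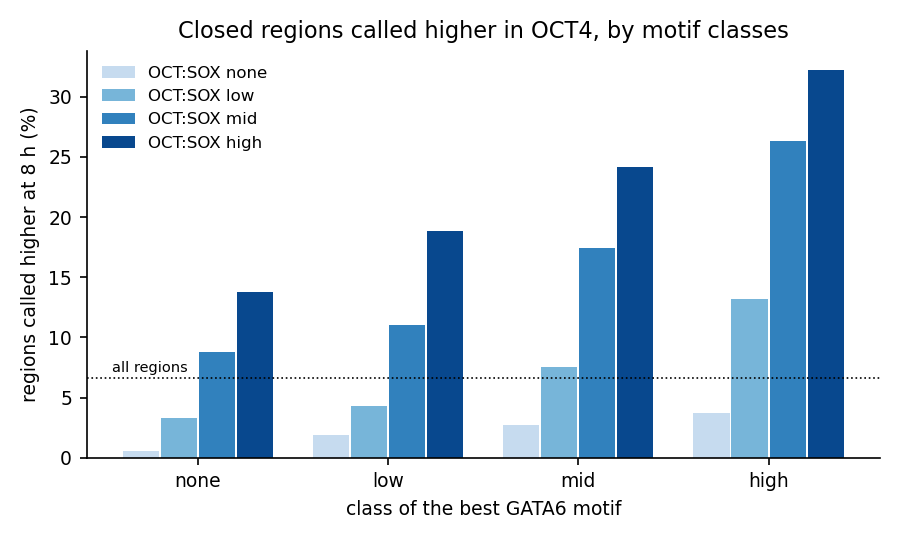
Share of closed regions called higher in OCT4 at 8 h (%, bars) for each class of the best GATA6 match (horizontal axis) and of the best OCT:SOX match (shade); the dotted line is the share in all regions, 6.64%. The share increases with both, from 0.535% with neither motif to 32.2% with a high match to both.

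GATA6 level and motif overlapped as descriptors. Among closed regions of the highest GATA6 group the change was 1.14 with a high, 1.09 with a mid, 0.93 with a low and 0.86 with no OCT:SOX match, and in the 99 regions with no listed match the library medians were 1.92 and 0.690 RPM before Dox and 2.29 and 2.38 RPM at 8 h. Of these, 35 (35.4%) were called higher. Within the 10 GATA6 groups the high against none difference for OCT:SOX averaged 0.11 (-0.07 to 0.19), and within the 3 accessibility classes 0.35 (0.18 to 0.50). For GATA6 motifs the corresponding averages were 0.21 (0.04 to 0.36) and 0.15 (0.11 to 0.23).

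**Figure D3:**
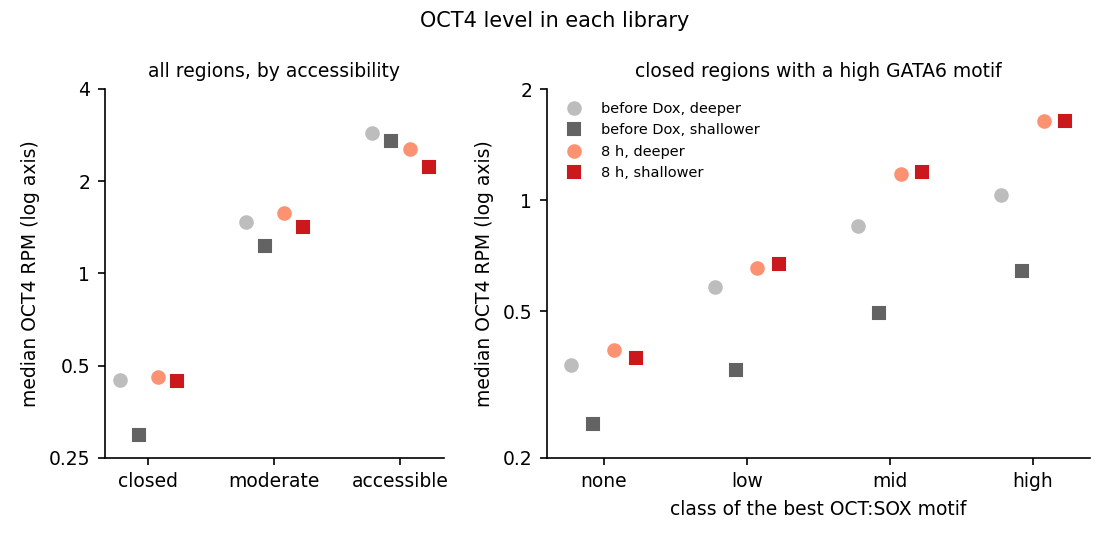
Median OCT4 RPM (log axis) in each of the 4 libraries, for all regions by accessibility (left) and for closed regions with a high GATA6 match by OCT:SOX class (right); circles are the deeper and squares the shallower library of each group. In closed regions the libraries before Dox are apart, at 0.447 and 0.296 RPM, and those at 8 h close, at 0.458 and 0.446 RPM; in accessible regions the 8 h libraries, at 2.55 and 2.23 RPM, are farther apart than those before Dox, at 2.86 and 2.71 RPM.

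The position of the OCT:SOX match went with the change. Among closed regions with a high or mid match, the median change was 0.71 where the match lay within 50 bp of the GATA6 summit, the point of highest GATA6 signal, and 342 of these 1292 regions (26.5%) were called higher. It was 0.54 from 50 to 100 bp and 0.33 from 100 to 200 bp, with 21.8% and 14.5% called. Beyond 200 bp the change was 0.34 and 17.8% were called, in regions that held more GATA6 at 8 h, a median of 2.51 RPM against 1.85 RPM. Measured from the best GATA6 match, the change was 0.72 for OCT:SOX matches closer than 50 bp, 0.59 from 50 to 100 bp, 0.46 from 100 to 200 bp and 0.37 farther away. The shares called did not follow the same steps: they were 26.9%, 20.1%, 18.6% and 19.4%. With a high GATA6 match closer than 50 bp it was 0.96, and 103 of 274 regions (37.6%) were called higher. In that set the farther bins had changes of 0.70, 0.61 and 0.57 and shares of 24.0%, 23.3% and 27.8%.

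Short words were searched as well. In the 301 bases around each summit, searched on both strands, the octamer ATGCAAAT, the canonical OCT4 word, was present in 3.73% of all regions, 7.17% of regions called higher and 1.87% of those called lower. Closed regions with the octamer had a median change of 0.54, and those without it 0.22. The GATA word AGATAA was in 58.1% of all regions, 75.7% of those called higher and 33.3% of those called lower. The SOX word CATTGTT, searched alone, was in 11.4% of all regions and 10.2% of those called higher. Closed regions with it had a smaller change than those without it, 0.18 against 0.23, and a smaller share called, 6.72% against 8.91%. Regions called lower were richer in G and C, at a median of 52.2% against 43.5% in regions called higher and 45.5% in all.

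The authors grouped histone marks of untreated cells into states, and the gains were unevenly spread over them. Of 7631 regions in the state the authors named naive, 992 were called higher (13.0%), with a median change of 0.30, and of 7146 primed enhancers 692 (9.68%), with a change of 0.24. Input changed by 0.22 in the naive and by 0.09 in the primed regions. Active enhancers had a change of -0.04, with 74 of 4730 called higher. Promoter-state regions had a change of -0.29. Their input changed by -0.61, from library medians of 0.793 and 1.57 RPM before Dox to 0.712 and 0.660 RPM at 8 h. Of the 267 regions called lower, 137 (51.3%) were in the promoter state and 109 (40.8%) within 1 kb of an annotated start, against 6.88% and 5.38% of all regions. In those 137 regions input changed by -1.08 and OCT4 by -1.21, and the part of input in these calls was not tested. By the course of GATA6 binding over time, closed regions of the transient class changed by 0.57, of the early class by 0.29 and of the late class by 0.07. Over all regions the transient and early classes were close, at 0.23 and 0.20, with 9.91% and 9.97% called higher. The late class changed by 0.02. Over the library pairs the early class ran from -0.06 to 0.57 and the transient class from 0.08 to 0.44. These classes were drawn from GATA6 signal that includes 8 h.

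SOX2, the usual partner of OCT4, moved with it. The labels list 3 SOX2 samples without Dox, numbered 1, 2 and 2_2, while the solved column held whole reads of 2 libraries; how the sample 2_2 entered is not given. Across all regions the change in SOX2 had a Spearman rho of 0.51 with the change in OCT4, against 0.29 for ESRRB, an orphan nuclear receptor of the pluripotency network, and 0.21 for input. In the regions called higher for OCT4 the SOX2 library medians were 0.580 and 0.708 RPM before Dox and 2.16 and 2.16 RPM at 8 h. The SOX2 groups were thus well apart, its median change was 1.501, and 78.4% of these regions gained SOX2 at least 2-fold, against 18.6% of all regions. ESRRB changed by 0.97 in the same regions and at least 2-fold in 47.7%, against 16.1% of all. ESRRB at 8 h solved as 1 library, although the labels list 2, so its values are noisier than those of SOX2, with 2 libraries. Input changed by 0.23 there and at least 2-fold in 4.15%. In the regions called lower SOX2 changed by -0.53 and input by -0.68. ChIP for each factor came from its own libraries, and a change of the cells common to all libraries of a time cannot be told apart from one specific to these factors.

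OCT4 at the regions called higher was highest at 8 h, the time by which they were chosen. Regions called higher had a median OCT4 of 0.778 RPM before Dox (libraries 0.940 and 0.592 RPM) and 2.33 RPM at 8 h (2.36 and 2.31 RPM). At 16 h they stood at 1.38 RPM, on day 1 at 1.67, on day 2 at 1.35 and on day 4 at 0.684 RPM. The 16 h value, which the choice of regions did not use except through the value before Dox, was above that before Dox in 89.7% of them, against 53.7% of all regions. A low value before Dox favoured a call and is also the reference for 16 h, so part of this excess follows from the choice. Regions called lower stood at 1.75 RPM before Dox (1.75 and 1.78 RPM), 0.671 RPM at 8 h (0.720 and 0.669 RPM), 1.01 RPM at 16 h and 2.01 RPM on day 2. Selecting regions for a high or low value at 8 h by itself makes the neighbouring times lie closer to the middle, so the course is a description.

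**Figure D4:**
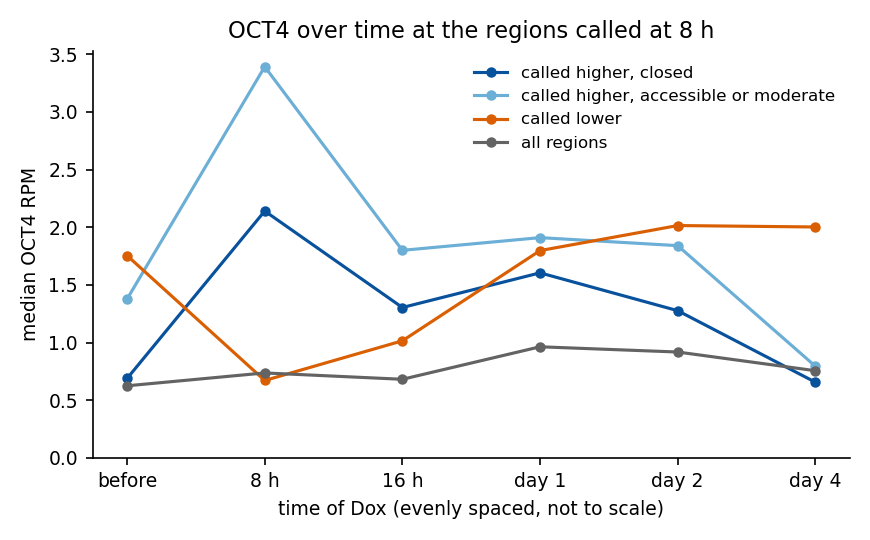
Median OCT4 RPM before Dox and at 8 h, 16 h and days 1, 2 and 4 of Dox (evenly spaced) in regions called higher at 8 h, split by accessibility, in regions called lower, and in all regions. The sets called higher peak at 8 h, where they were chosen, and approach the level of all regions by day 4; the set called lower is back at 1.80 RPM on day 1.

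The largest gain of all fell outside the pattern. At the start of Amdhd2, which encodes an N-acetylglucosamine-6-phosphate deacetylase, OCT4 went from 0.447 and 0.641 RPM to 9.29 and 10.1 RPM (limma log2 change 3.85 ± 0.31 SE, adjusted p = 1.5e-05). This accessible promoter had no match to either motif and GATA6 of only 0.752 RPM at 8 h. OCT4 there was 10.3 RPM at 16 h and 0.878 RPM on day 1, and input read 1.505 RPM before Dox and 0.2502 RPM at 8 h. SOX2 at the same place read 1.34 and 1.36 RPM before Dox and 2.09 and 1.38 RPM at 8 h.

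The next 7 regions by size of gain were all closed and all held a match to both motifs, as did many others: 38052 of all regions held a GATA6 match and 30302 an OCT:SOX match. The OCT:SOX match was of the low class at Zfand5, Cd55b and Dlx6. The intergenic region named Zfand5 (a zinc-finger regulator of the proteasome) went from 0.582 and 0.493 RPM to 6.61 and 7.81 RPM (limma log2 change 3.43 ± 0.32 SE, adjusted p = 6.8e-05), with GATA6 of 16.5 RPM at 8 h. The region named Zfp239, upstream of a zinc-finger gene, went from 0.940 and 0.690 RPM to 8.83 and 10.0 RPM, and the intronic Mdn1 region, in the gene of a ribosome assembly factor, from 1.97 and 0.592 RPM to 10.7 and 10.4 RPM. In each of the 3 the groups were far apart. The others (Cd55b, Ccser1, Dlx6 and Kdm1a) reached between 3.09 and 8.56 RPM at 8 h, and limma called all 8 of these largest gains. SOX2 read 0.903 RPM before Dox and 9.83 RPM at 8 h at Mdn1, and 1.24 and 10.6 RPM at Kdm1a, the gene of a histone demethylase.

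Among closed regions called higher, the one with the most GATA6 in each motif class gave further examples. The region named Gm6993, which was also the strongest near the laminin gene Lamb1, had the highest level: 9.75 and 4.24 RPM before Dox and 38.9 and 38.8 RPM at 8 h (limma log2 change 2.56 ± 0.25 SE, adjusted p = 9.7e-05), with GATA6 of 62.2 RPM. The intronic Cpn1 region, in the gene of a carboxypeptidase, went from 6.31 and 1.09 RPM to 25.8 and 25.7 RPM (limma log2 change 3.20 ± 0.46 SE, adjusted p = 0.0015). The region named Setd4 went from 6.17 and 5.67 RPM to 26.2 and 27.7 RPM, the tightest of the set. The region named Pik3r1 (a regulatory subunit of phosphoinositide 3-kinase), with a high match to both motifs, read 7.11 and 3.50 RPM before Dox and 13.3 and 12.2 RPM at 8 h (limma adjusted p = 0.010). In the intron of Adora1, an adenosine receptor gene, GATA6 reached 54.5 RPM, but OCT4 went from 8.46 and 1.58 RPM to 10.5 and 10.9 RPM and limma did not call it (adjusted p = 0.079). The deeper untreated library at Adora1 stood much nearer to the 8 h libraries than to its partner.

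The regions with the largest losses included one at the Gata6 gene itself. This region, in a coding exon of Gata6, read 1.70 and 7.74 RPM before Dox and 0.523 and 1.19 RPM at 8 h, the largest loss in pooled values at -2.28 (limma log2 change -2.01 ± 0.52 SE, adjusted p = 0.038). Its input was 1.21 and 16.7 RPM before Dox and 0.979 and 0.849 RPM at 8 h, so 1 untreated input library stood far above the other 3. GATA6, ESRRB and SOX2 were lower there too, going from 8.49, 7.71 and 3.30 RPM to 1.35, 1.98 and 1.52 RPM. The SOX2 libraries before Dox and at 8 h overlapped. The part of input in these falls was not tested. The cassette carries the same coding sequence, and reads from the gene and from the cassette cannot be told apart here. The promoter of Fbxo24, an F-box gene, went from 2.46 and 3.26 RPM to 0.654 and 0.521 RPM (limma log2 change -2.03 ± 0.37 SE, adjusted p = 0.0062), and its input read 2.45 RPM before Dox and 0.803 RPM at 8 h. The promoter of Wipi1, an autophagy gene, fell from 2.18 to 0.555 RPM (limma adjusted p = 0.019), with an input of 3.31 and 0.689 RPM. The regions named Fabp2, C77080, Wdr18 and Fam72a held between 1.08 and 1.72 RPM before Dox. Of the losses named here, limma did not call Wdr18 (adjusted p = 0.19).

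Lists of genes were read through the region with the most OCT4 within 100 kb of each start. Of 25 primitive endoderm genes, 10 had that region called higher and 1 (Gata6) lower (9 and 1 of 24 separate regions, since Col4a1 and Col4a2 share one), with a median change of 0.65, against 0.14 and 6.64% called higher over all regions. The Gata6 region is the coding exon described above, which the cassette also carries and where input fell from 8.97 to 0.914 RPM. Of 25 pluripotency genes 4 were called higher and 0 lower, with a median change of 0.02. Of 10 trophectoderm genes 1 (Cdx2) was called higher, and of 12 genes of other germ layers 2 (Gsc and Myod1). limma called 7 higher (6 separate regions) and 1 lower among primitive endoderm genes, 4 and 0 among pluripotency genes, 1 and 0 for trophectoderm and 0 for the other layers. Over all regions it called 3.9% higher and 0.175% lower. Taking all regions near the genes instead of the strongest one, the shares called higher were close to the background, 6.41% of 312 for primitive endoderm and 5.26% of 247 for pluripotency, whereas the strongest region was called at 10 of 25 and 4 of 25 genes. That choice used the higher of the 2 values and so favours regions that gained.

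Among transcription factors of primitive endoderm, the best region near Sox7 rose from 5.64 and 5.03 RPM to 12.4 and 12.9 RPM (limma adjusted p = 0.0035), and the one near Sox17 from 3.94 and 1.23 RPM to 5.82 and 6.55 RPM (adjusted p = 0.045 in limma). Both 8 h libraries exceeded both others at each. The Sox17 region lay 72596 bp from the start of Sox17, with the start of Rp1 nearer. Near Gata4 the values were 4.21 and 1.53 RPM and 5.43 and 4.91 RPM, which limma did not call (adjusted p = 0.15). At the receptor gene Pdgfra, a surface marker of the lineage, OCT4 rose from 5.41 and 2.27 RPM to 13.1 and 12.1 RPM (limma adjusted p = 0.0038). A single intronic region of Col4a2, shared with its neighbour Col4a1 (both encode basement membrane collagen chains), rose from 3.09 and 2.27 RPM to 9.68 and 9.67 RPM (limma adjusted p = 0.0011), and the intron of Cubn, an endocytic receptor, from 2.51 and 0.986 RPM to 5.50 and 4.54 RPM (limma adjusted p = 0.022). The strongest region near Lamc1, a laminin chain, held 20.0 and 20.7 RPM before Dox and 24.9 and 21.7 RPM at 8 h, with no call.

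Most pluripotency genes had no call. At the strongest region near Pou5f1, just upstream of its start, OCT4 read 9.13 and 9.17 RPM before Dox and 9.49 and 10.3 RPM at 8 h. Near Sox2 it read 11.01 and 9.62 RPM and then 14.3 and 12.5 RPM, and near Nanog 15.8 and 14.2 RPM and then 13.9 and 13.3 RPM. None of the 3 was called (limma adjusted p between 0.30 and 0.83). The Nanog region lay 57883 bp from the start of Nanog, with the start of Slc2a3 nearer. A region upstream of Nanog and closer to its start read 6.49 and 6.76 RPM before Dox. At 8 h it read 5.76 and 4.09 RPM (limma adjusted p = 0.39). OCT4 rose near Tbx3, whose T-box product sustains self-renewal but is also active in primitive endoderm, from 11.8 and 6.07 RPM to 20.0 and 19.9 RPM (limma adjusted p = 0.0079), and near the nuclear receptor genes Nr0b1 and Nr5a2 (limma adjusted p = 0.015 and 0.029). The Nr0b1 region, in a coding exon, read 1.97 and 2.07 RPM before Dox and 5.89 and 4.69 RPM at 8 h. OCT4 there was 35.0 RPM at 16 h and 1.72 RPM on day 1. ESRRB went from 4.35 to 106 RPM, the latter from 1 library, and the 2 SOX2 libraries at 8 h were far apart at 3.07 and 13.4 RPM. Near Klf5 limma made a call (adjusted p = 0.039) though the change of 0.97 fell short of 2-fold, and near Esrrb the change was 1.08 without a limma call (adjusted p = 0.063). At Tet2, which encodes a methylcytosine oxidase, OCT4 read 8.59 and 10.6 RPM before Dox and 7.001 and 5.88 RPM at 8 h, a change of -0.56 that limma did not call (adjusted p = 0.17).

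**Figure D5:**
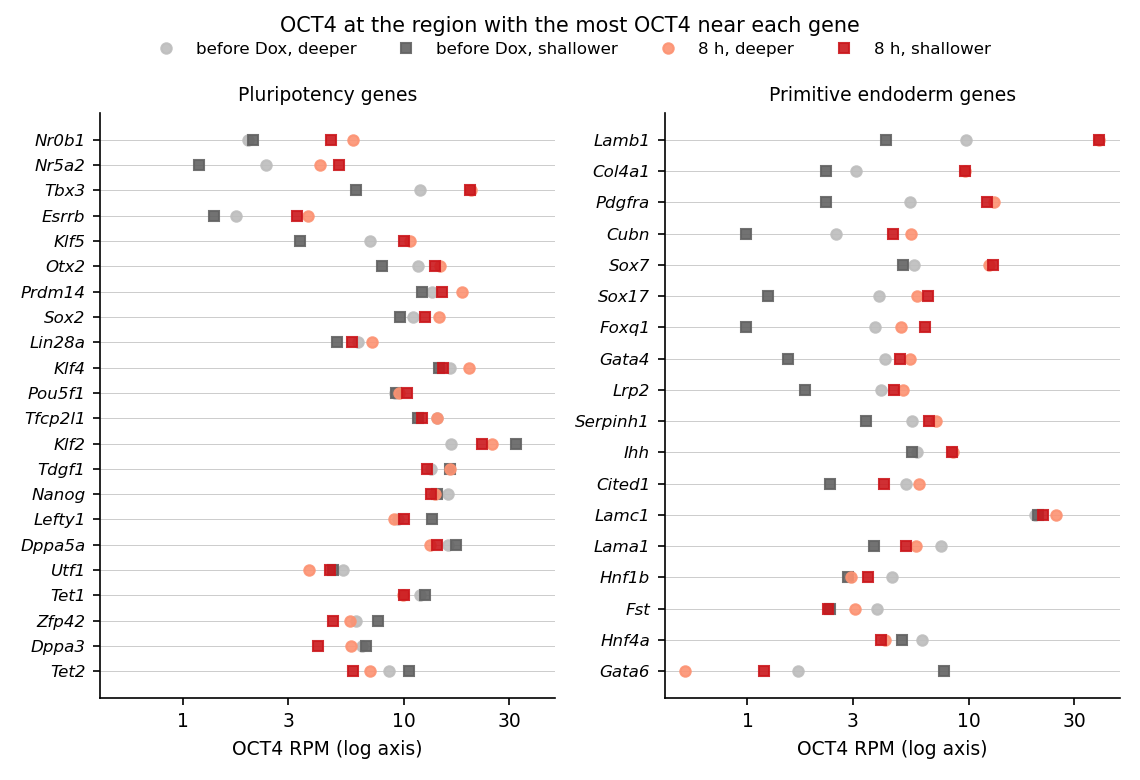
OCT4 RPM (log axis) in each of the 4 libraries at the region with the most OCT4 within 100 kb of pluripotency genes (left) and primitive endoderm genes (right), for regions of at least 3 RPM that could be divided into libraries, ordered by change. Lamb1, Col4a1 and Pdgfra show both 8 h libraries well above both before Dox, and Pou5f1 and Nanog show the 4 libraries close together. Gata6, read at a coding exon that the cassette also carries and where input fell too, shows both 8 h libraries below.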

How the data were processed

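OCT4, GATA6, SOX2, ESRRB and input ChIP-seq libraries were made after double fixation with DSG and formaldehyde, sequenced with molecular identifiers, trimmed (cutadapt), aligned to mm10 (bowtie2), filtered on mapping quality and freed of duplicates by the authors, who called GATA6 peaks with MACS2 and counted reads per peak with bamsignals. The deposited values are RPM, scaled by the authors to library size and averaged over libraries. The deposited motif scores are FIMO scores of the authors' scan with JASPAR matrices MA1104.1 (GATA6) and MA0142.1 (OCT4:SOX2). Classes of accessibility, histone state and GATA6 course are those of the authors. A class drawn from their own comparison of OCT4 knockdown with control was not used, nor were 14 columns of other per-sample values.

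The OCT4, SOX2, ESRRB and input columns before Dox were means over the libraries before Dox, at 8 h and at 16 h and were solved for the libraries before Dox (OCT4: 6 libraries in the mean; ESRRB: 2 before Dox, 1 at 8 h and 2 at 16 h). The design had assumed that column to hold only libraries before Dox. GATA6 before Dox was a single library. Means were divided into libraries from the value of 1 read in each, to the printed 15 or 7 significant digits; the split was tested on simulated data and was right in 100% of the unique splits. No region is listed under 1 read per library. Changes are on log2(RPM + 0.144), the pseudocount being percentile 5 of the values; calls used a fold of 2 and 1 RPM. limma 3.58.1 (R 4.3.3) was run on log2 values of the 2 libraries per group in 42353 regions, without a replicate block, with Benjamini-Hochberg adjustment over all of them; other steps used Python 3.11.15. Named regions were the 8 largest changes in each direction, the strongest region within 100 kb of each listed gene (printed from 3 RPM) and the closed region called higher with the most GATA6 in each motif class. One of the largest losses is not reported here. Members and lists were chosen with earlier results of these data known. Genes are protein-coding genes of GENCODE vM21. The coordinates were checked on the genome: 77.5% of 2834 high OCT:SOX matches held the letters ATG at the expected place, and 0% when shifted by 1 base. Intervals of counting error were not used; with 2 libraries per group an exact permutation test cannot reach 0.05, so none is given. Alternatives are given in the closing section.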

Additional observations from a re-analysis of the deposited data

How the results depend on the processing

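Alternatives chosen after seeing the data were limma with other scalings, the ratios to a single input library, the ratio to both input libraries except for the median change, the deposited column before Dox and the removal of 1 read and, for the median changes, leaving out a library and quantile normalization and, for the accessibility and motif contrasts, subtracting input. The direction and, within 1.5 times or the spread between library pairs, the size held in 13 of 23 alternatives for the count of regions higher, 4 of 23 for the count lower, 12 of 14 for the median change, 16 of 20 for the GATA6 contrast, 9 of 16 for accessibility, 14 of 16 for the GATA6 motif and 12 of 16 for OCT:SOX. That spread was 0.16 against a median change of 0.14, and 0.21 against a GATA6 motif contrast of 0.27. Values far smaller than these therefore also counted as held. The count of regions higher (2816) was 5796 at a fold of 1.5, 1660 from 2 RPM, 506 with a pseudocount 10 times larger, 1670 after quantile normalization, 1651 by limma, 1515 by limma with medians set to 0, 1620 by limma voom, 0 by limma after quantile normalization and 14 with the column before Dox as deposited. The count of regions lower (267) was 1486 at a fold of 1.5, 413 from 0.5 RPM, 105 from 2 RPM, 463 with no lowest RPM, 8 and 416 with a pseudocount 10 times larger and smaller, 498 after subtraction of the median change, 820 after quantile normalization, 74, 553, 45 and 0 by limma as such, with medians set to 0, by voom and after quantile normalization, 23 with the deposited column, 442 relative to input, and 639 or 957 relative to the deeper or shallower input library. Leaving out each library in turn gave 1885 to 4966 higher and 344 to 636 lower.

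The median change of all regions was -0.035 after quantile normalization and 0.034 to 0.31 when a library was left out. The contrast of highest and lowest GATA6 group (0.41) was 0.71 with input subtracted, 0.93 in closed regions, 1.35 within groups of like SOX2 before Dox, 1.47 in regions of at least 1 RPM, where the lowest group held 8 regions, and 0.21 to 0.67 when a library was left out. The SOX2 value is a mean over only 4 groups, with 1.23 to 1.57, since the others held too few regions of both kinds. Closed against accessible (0.47) was 0.92 from 1 RPM, 0.048 with the deposited column, 0.72 within GATA6 groups, 0.21 with the larger pseudocount, 0.15 with input subtracted, -0.055 relative to input, -0.30 with the shallower input library, and 0.34 to 0.66 when a library was left out. The value within GATA6 groups covers 9 of the 10 groups. The GATA6 motif contrast (0.27) was 0.49 from 1 RPM, 0.050 with the shallower input library, and 0.15 to 0.45; the OCT:SOX contrast (0.23) was 0.11 within GATA6 groups, 0.35 within accessibility classes, 0.076 relative to input, -0.0031 with the shallower input library, and 0.15 to 0.30. Why input libraries differ was not tested. No paired analysis was possible because the libraries recovered from the means carry no replicate number. Depth limits the low end: 1 read is worth 0.0447 to 0.0744 RPM.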
